A study of Mus musculus with 12 samples.

Results

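The liver transcriptome of male KK mice was set against that of male C57BL/6J mice. This comparison was of 6 of the 12 arrays of the series, the 3 arrays titled as KK males and the 3 titled as C57BL/6J males, chosen by their titles alone. The spread was estimated over all 12 arrays. Each array held liver RNA of 1 mouse. KK mice are inbred and prone to obesity with insulin resistance, and C57BL/6J is the common reference strain. The strain field of the KK samples reads KK/HIJ and another label reads KK/J, so both spellings are given here once and the strain is called KK. All mice of both groups ate chow, were 8 weeks old, lived alone for 3 days and went 4 hours without food. Death was by cervical dislocation, the liver was perfused with PBS, and the large lobe was kept in RNAlater for 24 hours. Neither group carried a transgene or received a drug, per the labels. Values of the 6 female arrays are given only where they show whether a male difference was also present in females.

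Several programmes of liver gene expression bear on such a comparison. The nuclear receptor PPARalpha is switched on by fatty acids and drives genes of fatty acid oxidation, among them the Cyp4a enzymes that hydroxylate the far end of the chain. In mice, growth hormone is released in pulses in males and more steadily in females. STAT5b reads these pulses in hepatocytes and, with the repressor BCL6, keeps many liver genes at different levels in males and females. Interferons act through a short promoter element and induce antiviral genes in hepatocytes and in liver macrophages, the Kupffer cells.

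The 6 male arrays had median log2 values of 5.90 to 6.03 and interquartile ranges of 2.64, in KK male 2, to 2.91. Pearson correlations over all probe sets, which do not vary independently, were 0.992 to 0.996 within a male group and 0.984 to 0.990 between the strains. No scan date or batch is named in the labels. The array number, 3 per group, limits the precision. All 10 measured hepatocyte markers stood at high levels, with a mean of 12.86 to 13.01 per array, and none was called different. Eif2s3y, Uty and Kdm5d, which lie on the Y chromosome, read 5.87 or more in every male array and 4.66 or less in every female array. Xist, the RNA of the silenced X chromosome, read at most 4.70 in males and at least 10.29 in females. Nnt, a mitochondrial transhydrogenase gene whose C57BL/6J allele is known to lack exons, differed by 0.86 (SE 0.07, adjusted p = 1.96e-05).

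Values are log2 expression values, so a difference of 1 is a doubling. Differences are KK minus C57BL/6J, SEs come from the limma fit over all 12 arrays, SDs cover the mice of 1 group, and each group had n = 3 mice. A probe set was called at a limma p under 0.05 after Benjamini-Hochberg adjustment over all 21212 probe sets. Each p-value sets the difference against a spread between mice that limma pools over all 12 arrays, females included. In all 1092 probe sets were called, 5.15% of those tested. Of these, 442 were higher in KK males (2.08%) and 650 were lower (3.06%). The lean to lower depended on the scaling: quantile normalization gave 676 higher and 729 lower, and the interquartile range as covariate 837 and 836. The called differences were mostly modest, with a median size of 0.53, and 160 reached 2-fold, 62 higher and 98 lower. The median of all probe sets was 0.02. When only the 6 male arrays were fitted, 880 probe sets were called, and 792 of them were among the 1092. Leaving out KK male 1 gave 662 calls and leaving out C57BL/6J male 3 gave 711, of which 362 were lower. The count higher was 284 when C57BL/6J male 2 was left out, and the count lower was 389 with KK male 2 left out. A core of 527 calls, 146 of them at least 2-fold, passed with each one of the 12 arrays left out in turn. A further 2495 probe sets had an unadjusted p under 0.05 and were not called. The 3 values of each strain did not overlap for 1090 of the 1092 calls. Such separation was found in 4605 of all probe sets, which is 21.7%.

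Cyp4a14, Cyp4a10 and Cyp4a31, fatty acid hydroxylase genes driven by PPARalpha, had much lower signals in KK males. Their relatives Cyp4a12a (0.88, adjusted p = 0.0332) and Cyp4a12b (0.46, adjusted p = 0.213) had differences above 0. Cyp4a14 on chromosome 4 read 11.80, 11.94 and 10.40 in C57BL/6J males and 5.15, 5.23 and 5.44 in KK males. The difference in signal was -6.11 (SE 0.38, adjusted p = 1.7e-06), with no overlap between the strains. No fold is given for probe sets this dim in 1 strain, since their own background is not known. For orientation, the 6 measured genes of the Y-linked list, which females lack, read at most 5.76 in female arrays. On the Y chromosome 7 genes were measured, so the list does not hold all of them. Cyp4a10 fell from a mean of 12.38 (SD 0.17) to 8.95 (SD 0.28), a difference of -3.43 (SE 0.20, adjusted p = 9.64e-07). Cyp4a31 fell from 10.29 (SD 0.38) to 7.56 (SD 0.20), by -2.73 (SE 0.25, adjusted p = 3.92e-05). These genes stand next to each other in the RefSeq order, and Cyp4a32, the next in the row, differed by -0.63 (adjusted p = 0.0214). The call of Cyp4a32 was lost without C57BL/6J male 2 (0.0925), C57BL/6J male 3 (0.0538), KK male 1 (0.0988) or KK male 2 (0.0871). The genes of this cluster are close paralogs, so probes can read more than 1 of them.

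The vanin genes, which encode the pantetheinases that split pantetheine, were low as well. Vnn1, another known PPARalpha target, read 9.34, 9.63 and 9.50 in C57BL/6J males and 5.41, 5.33 and 5.87 in KK males. Its difference was -3.95 (SE 0.17, adjusted p = 9.44e-08). Vnn3 on the same chromosome, 10, differed by -2.36 (SE 0.11, adjusted p = 1.37e-07). In females both were low in KK too, Vnn1 by -3.85 and Vnn3 by -2.12.

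Genes of sterol and foreign compound metabolism and of other roles were also among the 15 largest decreases. Cyp39a1, which hydroxylates oxysterols on the way to bile acids, read 8.97, 8.40 and 8.19 against 4.98, 5.31 and 5.13 in KK males (difference -3.38, SE 0.19, adjusted p = 5.82e-07). Slco1a4, an organic anion transporter gene, differed by -2.91 (SE 0.24), the carboxylesterase pseudogene Ces2d-ps by -3.20 (SE 0.37) and Akr1c12, an aldo-keto reductase gene, by -2.53 (SE 0.16). Cyp2c38 differed by -2.08 (SE 0.27) and its paralog Cyp2c39 by 2.10 (SE 0.18), in opposite directions. Mug2, which encodes the plasma protease inhibitor murinoglobulin, differed by -2.56 (SE 0.19) and H2-T22, a nonclassical MHC class I gene, by -2.12 (SE 0.25).

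Probe sets of 3 genes with basic cellular roles were also among the 15 largest decreases. Sarnp, an mRNA export gene, read 7.48, 8.07 and 8.43 in C57BL/6J males and 4.13, 3.78 and 3.92 in KK males. Eif4a1, the helicase of translation initiation, read 8.82, 8.75 and 8.90 against 4.94, 4.18 and 5.72. Capza1, an actin capping gene, read 8.79, 9.33 and 8.44 against 6.33, 4.72 and 4.72. The differences were -4.05 (SE 0.32), -3.87 (SE 0.31) and -3.60 (SE 0.50), and the strains did not overlap in any of these genes. The differences in females were -3.76, -4.17 and -3.22. Probe sequences and strain variants under the probes were not examined here.

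The largest increases were 2 detoxification and steroid enzymes. Gstp3 on chromosome 19, a glutathione S-transferase gene, read 6.71, 6.35 and 6.88 in C57BL/6J males and 11.99, 11.82 and 11.99 in KK males (difference 5.29, SE 0.14, 39.0-fold, adjusted p = 1.06e-09). Akr1c18, whose product inactivates progesterone, read 5.13, 5.08 and 4.82 against 9.69, 9.15 and 9.81 (difference 4.54, SE 0.16, adjusted p = 1.78e-08). The strains did not overlap for either gene. Both genes have close paralogs, and a probe set may read more than 1 of them.

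Cap2, which encodes an actin-binding protein, had little spread in either strain. It read 4.95, 4.84 and 4.66 in C57BL/6J males and 8.65, 8.45 and 8.60 in KK males (difference 3.75, SE 0.09, adjusted p = 7.12e-10). Gbp11, of the interferon-inducible guanylate-binding protein family, was higher by 3.32 (SE 0.31), Rassf4 by 3.14 (SE 0.13), the ion channel gene Asic5 by 2.79 (SE 0.13) and the lysophospholipase gene Gdpd3 by 2.65 (SE 0.31). Gdpd3 was uneven among KK males, at 7.46, 6.51 and 7.59. The remaining increases among the 15 largest were Serpina4-ps1 (2.45), Abhd1 (2.41), Lrtm1 (2.35), the kinase gene Plk3 (2.11) and the plasma protein genes Apoa4 (2.61) and Apcs (2.41), described with their groups below.

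Moxd1, a monooxygenase gene on chromosome 10, was higher in KK males but differed by -0.04 in females. Its values were 4.70, 4.61 and 5.14 in C57BL/6J males and 7.52, 7.93 and 9.06 in KK males (difference 3.35, SE 0.29, adjusted p = 2.84e-05). Females of both strains read between 4.16 and 4.51. With Cyp4a14, Sarnp, Vnn1, Eif4a1, Capza1, Cyp39a1, Akr1c18 and Cap2 it made up the 9 named genes whose mean was at or below 5.76 in 1 strain and at least 2 above that in the other. Single mice can lie past these limits, as KK male 1 does for Capza1 at 6.33, and the level is no measured background of these probe sets.

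**Figure D1:**
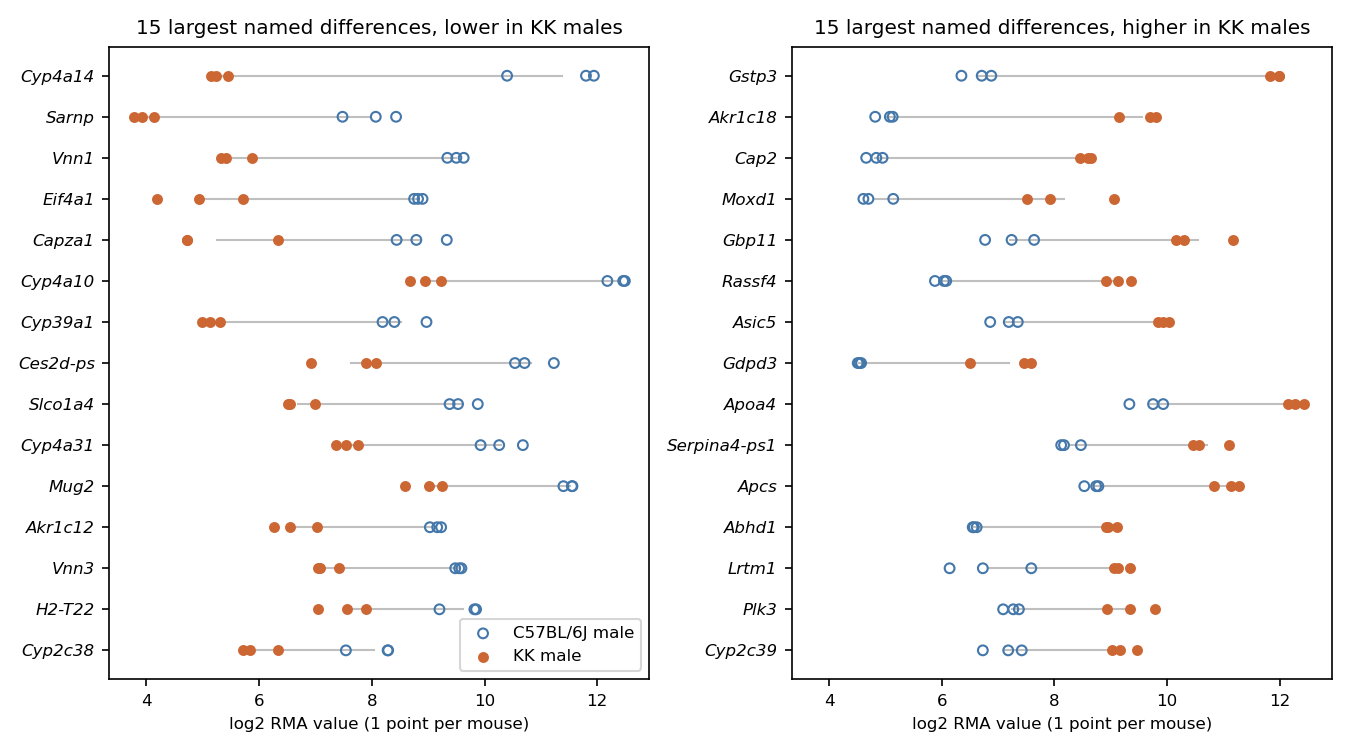
Log2 RMA values (horizontal axis) of the 15 named genes with the largest decrease (left) and the 15 with the largest increase (right) in KK males, 1 point per mouse, with a grey line between the group means. Open circles are C57BL/6J males and filled circles KK males; the strains do not overlap for any of the genes, by the rule that chose them, and Cyp4a14, Sarnp, Vnn1 and Akr1c18 show 1 strain between 3.78 and 5.87.

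Lists of genes with a shared role were then read one by one. Each list is described by the number of its measured genes called in each direction and by its median, beside 2.08% called higher, 3.06% called lower and a median of 0.02 over all probe sets. Over all 21212 probe sets, an unadjusted p under 0.05 was reached by the 1092 called and by a further 2495. Counts of list genes at that level are to be read beside these. The lists were written with earlier results of these data known.

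Genes of fatty acid and triglyceride synthesis were called more often higher than lower, 6 and 1 of 26, with a median of 0.03. Mogat1, which encodes a monoacylglycerol acyltransferase, read 4.31, 4.26 and 4.37 in C57BL/6J males and 6.22, 6.18 and 6.43 in KK males (difference 1.96, SE 0.10, adjusted p = 3.88e-07). Thrsp, a nuclear protein that promotes lipogenesis, was higher by 1.44 (SE 0.18, adjusted p = 0.000486). Acacb, the acetyl-CoA carboxylase whose product restrains fatty acid entry into mitochondria, was higher by 0.95 (SE 0.11). The long-chain elongase Elovl5 was higher by 0.73 (SE 0.08) and the desaturase Fads1 by 0.62 (SE 0.06). Pklr, the liver pyruvate kinase gene, differed by 0.49 (adjusted p = 0.0347) and lost its call without any 1 of 5 arrays, at most 0.11 without KK male 1. Lpin1, a phosphatidate phosphatase gene, went the other way, from 10.68, 9.53 and 10.13 to 8.40, 8.98 and 7.67 (difference -1.77, SE 0.33, adjusted p = 0.00851).

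Several core genes of fatty acid synthesis were not called. Fasn, the fatty acid synthase, read 8.96, 9.25 and 9.65 in C57BL/6J males and 9.83, 9.40 and 9.38 in KK males (difference 0.25, adjusted p = 0.498). Acaca differed by -0.33 (adjusted p = 0.236), Elovl6 by 0.32 (adjusted p = 0.237) and the regulator Srebf1 by -0.18 (adjusted p = 0.522), all with overlapping values. Scd1, the stearoyl-CoA desaturase, stood at 12.92 (SD 0.22) and 13.28 (SD 0.07) and was not called (adjusted p = 0.25). These 5 genes were chosen for their place in the pathway.

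The fatty acid oxidation and PPARalpha list had 7 calls lower and 1 higher among 28 genes, with a median of -0.10. Besides Cyp4a14, Cyp4a10, Cyp4a31 and Vnn1, the acyl-CoA thioesterase Acot1 was lower by -1.18 (SE 0.17, adjusted p = 0.00174). Ehhadh, the bifunctional enzyme of peroxisomal oxidation, differed by -0.78 (SE 0.09, adjusted p = 0.000308), from 11.19, 11.22 and 11.02 to 10.45, 10.26 and 10.38. Slc25a20, the mitochondrial acylcarnitine carrier, differed by -0.46 (adjusted p = 0.0103, 0.0545 without KK male 1). Acaa1b, a peroxisomal thiolase gene, was the call in the other direction at 0.38 (adjusted p = 0.0393). It was lost without any 1 of 7 arrays, at most 0.14 without C57BL/6J male 1. Ppara itself stood at 10.05 in both strains (difference 0.00, adjusted p = 0.996), Cpt1a, which admits fatty acids to mitochondria, differed by -0.34 (adjusted p = 0.173), and Fgf21 by 0.16 (adjusted p = 0.571).

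Lipid droplet and PPARgamma genes had 2 calls higher and 1 lower among 18, none of which passed with each array left out. Cidec, a lipid droplet protein gene, differed by 0.43 (adjusted p = 0.0177, 0.0772 without C57BL/6J male 3), the droplet-budding gene Fitm2 by 0.32 (adjusted p = 0.0456, 0.159 without KK male 1) and the fatty acid transporter Cd36 by -0.71 (adjusted p = 0.0289, 0.117 without KK male 2). Without C57BL/6J male 3 no gene of this list was called. Pparg read 6.93, 7.05 and 7.06 in C57BL/6J males and 7.48, 7.33 and 8.28 in KK males, and did not pass (difference 0.68, adjusted p = 0.0995). It passed with quantile normalization (0.0443) and with the interquartile range as covariate (0.00884).

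Bile acid genes leaned lower, with 8 calls lower and 1 higher among 25 and a median of -0.18. Abcb11, the pump that exports bile salts into the canaliculus, read 12.24, 12.28 and 12.17 in C57BL/6J males and 11.17, 11.06 and 11.15 in KK males (difference -1.10, SE 0.07, adjusted p = 2.32e-06). Slc27a5, which activates bile acids for conjugation, differed by -0.61 (SE 0.07), Akr1d1 by -0.64 (SE 0.12), Cyp27a1 by -0.49 (SE 0.07) and Hsd3b7 by -0.44 (SE 0.06), all enzymes of the synthetic route. With Cyp39a1, these enzymes passed with each array left out in turn. Klb, the co-receptor through which the gut hormone FGF15 lowers bile acid synthesis, differed by -0.73 (SE 0.12, adjusted p = 0.00328). Its partner receptor Fgfr4 differed by 0.42 (adjusted p = 0.0161, 0.0752 without KK male 1). Amacr, at -0.34 (adjusted p = 0.0179), was lost without any 1 of 4 arrays, at most 0.0796 without C57BL/6J male 3. Cyp7a1, the rate-limiting enzyme of the classical pathway, read 10.88, 10.21 and 10.40 against 9.29, 9.66 and 10.41 and was not called (difference -0.71, adjusted p = 0.341). The nuclear receptor gene Nr1h4 (-0.26, adjusted p = 0.393), the sterol hydroxylase gene Cyp8b1 (-0.17, adjusted p = 0.61) and the uptake transporter gene Slc10a1 (-0.04, adjusted p = 0.816) had overlapping values.

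In the lipoprotein list 1 gene was called higher and 4 lower of 24. Apoa4, the apolipoprotein that the liver makes in response to lipid load, read 9.93, 9.33 and 9.75 in C57BL/6J males and 12.27, 12.42 and 12.15 in KK males (difference 2.61, SE 0.13, 6.1-fold, adjusted p = 2.29e-07). Abcg5 and Abcg8, whose products form the pump that moves cholesterol into bile, were lower together, by -0.91 (SE 0.09) and -0.83 (SE 0.11). They are neighbours on chromosome 17. Apom, a carrier of sphingosine-1-phosphate in HDL, was lower by -0.63 (SE 0.11, adjusted p = 0.006). Angptl8, an inhibitor of lipoprotein lipase activity, differed by -1.03 (adjusted p = 0.0105, 0.0502 without C57BL/6J male 3).

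Cholesterol synthesis had 4 calls lower and 1 higher among 18, with a median of -0.15. Sc5d, a late sterol desaturase, differed by -0.99 (SE 0.10, adjusted p = 6.91e-05), the isoprenoid synthase Ggps1 by -0.84 (SE 0.12) and Pmvk, the phosphomevalonate kinase, by -0.81 (SE 0.15). Tm7sf2, a sterol reductase gene, differed by -0.55 (adjusted p = 0.0194, 0.0813 without KK male 1). Dhcr7, the last reductase of the pathway, was higher by 0.58 (SE 0.11, adjusted p = 0.00724). Srebf2, the regulator of the pathway, did not separate, at 8.05 and 8.04.

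Glucose metabolism and insulin signalling gave 3 calls among 21 genes. None passed with each array left out in turn, and each was lost without any 1 of 4 or 5 arrays. Gys2, the liver glycogen synthase, differed by -0.54 (adjusted p = 0.0292, 0.122 without C57BL/6J male 3), Ppp1r3b, a glycogen-targeting subunit, by -0.74 (adjusted p = 0.0214, 0.0889 without KK male 2) and the pyruvate carboxylase Pcx by 0.34 (adjusted p = 0.0278, 0.103 without C57BL/6J male 2). Without KK male 3 no gene of the list was called. The gluconeogenic genes Pck1 (0.07) and G6pc (-0.08), the insulin receptor Insr (-0.10) and its substrate Irs2 (0.01) all had adjusted p-values of 0.745 or more.

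**Figure D2:**
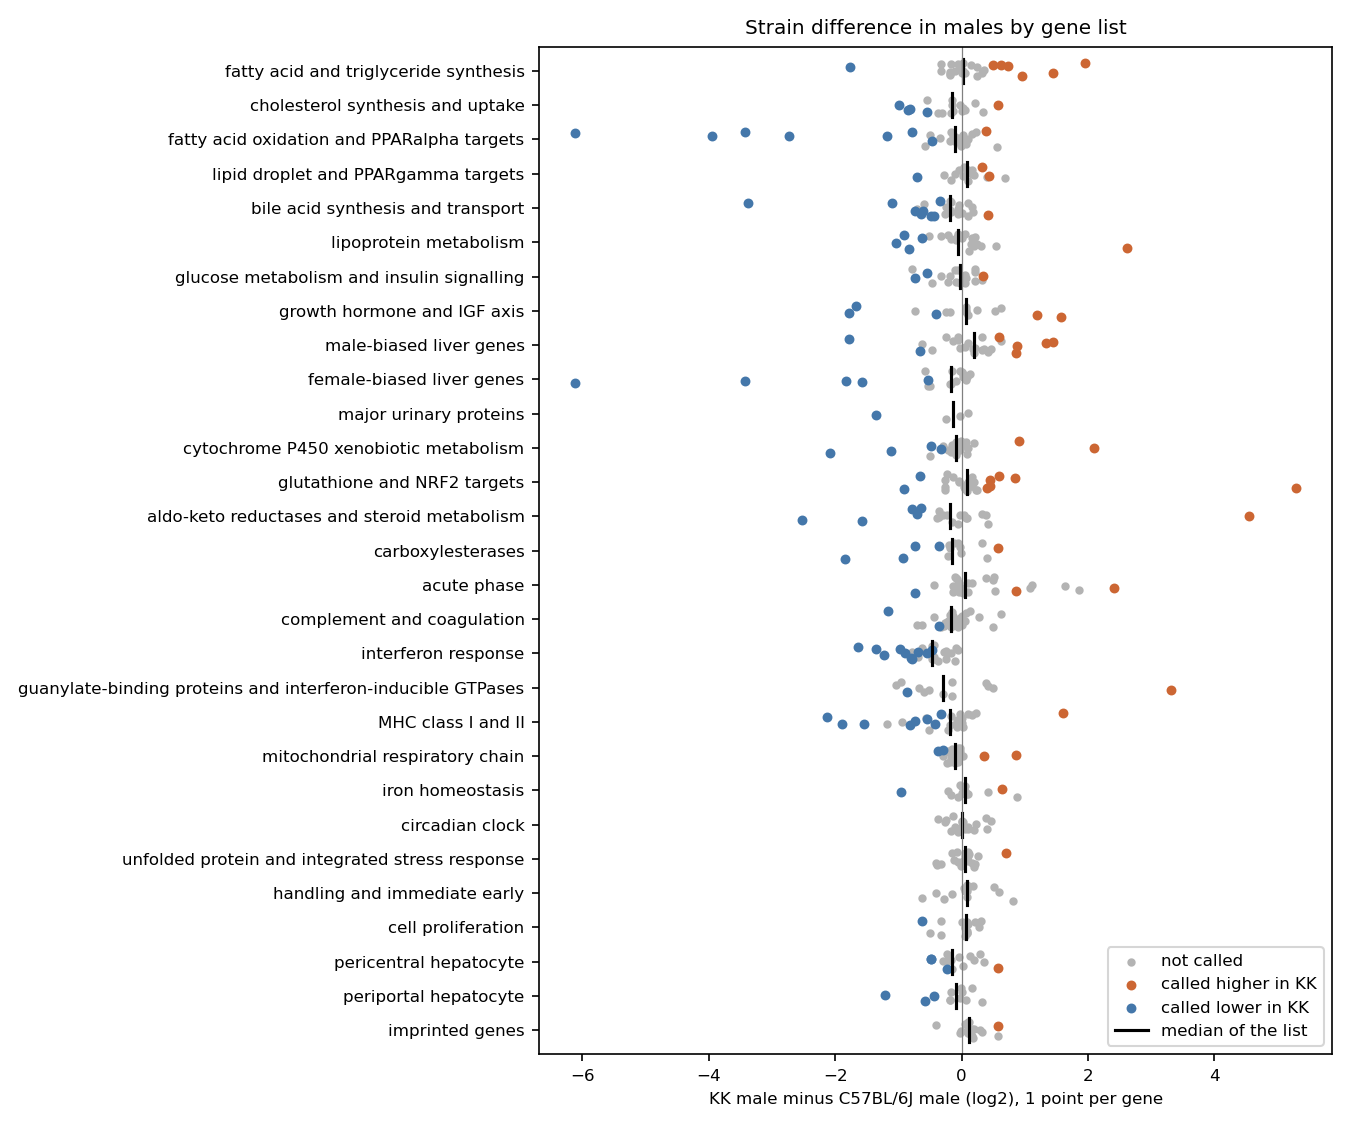
KK male minus C57BL/6J male (log2, horizontal axis) for every measured gene of each pathway list (vertical axis), 1 point per gene; coloured points passed the test and the black bar is the list's median. The points of the interferon list lie to the left of 0 with a median of -0.47, while most medians lie between -0.20 and 0.20.

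The enzymes of foreign compound metabolism differed gene by gene rather than as a class. Of 24 cytochrome P450 genes, 2 were called higher and 4 lower. Cyp2c37 differed by -1.11 (SE 0.20, adjusted p = 0.00639), and Cyp2c38 and Cyp2c39 are given above. Cyp2b10, the classical target of the receptor CAR, differed by 0.91 (adjusted p = 0.0281, 0.123 without KK male 1), Ahr by -0.49 (adjusted p = 0.0124, 0.0535 without C57BL/6J male 1) and Cyp3a25 by -0.33 (adjusted p = 0.0362, 0.108 without C57BL/6J male 1). Without C57BL/6J male 1 the list had 2 calls lower. Abundant members such as Cyp2e1 (-0.04), Cyp3a11 (0.08) and Cyp1a2 (0.19) had adjusted p-values of 0.216 or more.

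Glutathione and NRF2 target genes had 6 calls higher and 2 lower among 29, with a median of 0.09. Beside Gstp3, Gstm3 was higher by 0.84 (SE 0.15) and Srxn1, which repairs oxidised peroxiredoxin, by 0.45 (SE 0.07). Gstp1, the neighbour and paralog of Gstp3, went the other way, from 13.23, 13.53 and 13.41 to 12.63, 12.73 and 12.82 (difference -0.66, SE 0.11, adjusted p = 0.00481). Cbr1, a carbonyl reductase gene, differed by -0.91 (SE 0.18, adjusted p = 0.00975, 0.0556 with only the male arrays fitted). Without C57BL/6J male 3, the count higher fell to 3, since Gsta4 (0.45), Gstm2 (0.59) and Gstm4 (0.41) then had adjusted p-values of 0.0564, 0.0531 and 0.074. Nqo1 (0.08) and Gclc (0.08), standard NRF2 targets, were not called.

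Among 20 aldo-keto reductase and steroid genes, 1 was called higher and 5 lower. Akr1c18 and Akr1c12 on chromosome 13 differed in opposite directions, by 4.54 and -2.53, while their paralog Akr1c6 differed by -0.15 (adjusted p = 0.262). Sult1a1, a phenol sulfotransferase gene, was lower by -0.78 (SE 0.13, adjusted p = 0.00344). Hsd17b6 (-0.70, adjusted p = 0.0306) and Cyp17a1 (-1.58, adjusted p = 0.0205) were lost without single arrays, at most 0.126 (C57BL/6J male 2) and 0.084 (KK male 1). Without KK male 1 the list had 3 calls lower. Of 14 carboxylesterase genes, Ces2a (-1.84, SE 0.13), Ces3b (-0.73, SE 0.11) and Ces4a (-0.93, SE 0.16) were lower and Ces1e (0.58, SE 0.09) was higher. Ces1c, at -0.35 (adjusted p = 0.0192), was lost without C57BL/6J male 2 (0.0834). These families sit in clusters of similar genes, where 1 probe set may read several.

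Growth hormone signalling genes included calls in both directions, 2 higher and 3 lower of 15. Cish, a feedback inhibitor that STAT5 induces, read 6.82, 6.56 and 6.51 in C57BL/6J males and 7.49, 7.90 and 8.12 in KK males (difference 1.20, SE 0.19, adjusted p = 0.00236). Bcl6, the repressor that growth hormone and STAT5 hold down, read 9.03, 8.95 and 9.39 against 7.27, 7.85 and 6.92 (difference -1.78, SE 0.21, adjusted p = 0.000339). Every KK male was thus above the C57BL/6J males for Cish and below them for Bcl6. Igfbp2, an IGF-binding protein gene, was lower by -1.67 (SE 0.22, adjusted p = 0.00066) and Stat5b by -0.41 (SE 0.08, adjusted p = 0.00935). Onecut1, the transcription factor HNF6, differed by 1.58 (adjusted p = 0.0108, 0.0527 without C57BL/6J male 3). Igf1 (0.10), the receptor gene Ghr (0.07) and Igfals (-0.25) did not pass, and Socs2, another STAT5 target, read 7.63, 8.27 and 7.66 against 8.04, 8.07 and 9.05 (difference 0.53, adjusted p = 0.428).

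In females the signs of both differences were turned, and for Bcl6 the female difference was also called. Bcl6 read 6.76, 6.30 and 6.24 in C57BL/6J females and 7.27, 7.32 and 7.56 in KK females, a strain difference of 0.95. The male difference minus the female one was -2.73 (SE 0.30, adjusted p = 0.00264). Cish read 7.25, 7.14 and 7.86 in C57BL/6J females and 6.70, 6.90 and 6.89 in KK females, a difference of -0.59 that was not called (adjusted p = 0.0943). Here the male minus female difference was 1.79 (SE 0.26, adjusted p = 0.0184), and it was lost without any 1 of 4 arrays, at most 0.0714 without KK male 2. In C57BL/6J the sexes were far apart for Bcl6, with means of 9.13 and 6.43, and in KK they were close, at 7.34 and 7.38.

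Both promoters hold the palindrome that STAT5 binds, TTCNNNGAA, printed in capitals below to show where it lies in genes that moved in opposite directions. This motif was searched after the values had been seen. It reads the same on both strands. The sequences are RefSeq GRCm38.p6, which is C57BL/6J sequence around the start of the gene, read 5′ to 3′ on the gene's strand. Cish lies on the plus strand at chr9:107296409-107296708 with 2 matches, and Bcl6 on the minus strand at chr16:23981234-23981533 with 3 matches, shown for the one of its 2 promoters with more of them.
Cish: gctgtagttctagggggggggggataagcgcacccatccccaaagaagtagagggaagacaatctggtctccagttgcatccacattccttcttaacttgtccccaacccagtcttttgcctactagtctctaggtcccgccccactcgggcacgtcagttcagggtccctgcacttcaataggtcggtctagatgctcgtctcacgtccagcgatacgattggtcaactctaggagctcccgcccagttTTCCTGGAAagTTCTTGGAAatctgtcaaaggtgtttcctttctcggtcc
Bcl6: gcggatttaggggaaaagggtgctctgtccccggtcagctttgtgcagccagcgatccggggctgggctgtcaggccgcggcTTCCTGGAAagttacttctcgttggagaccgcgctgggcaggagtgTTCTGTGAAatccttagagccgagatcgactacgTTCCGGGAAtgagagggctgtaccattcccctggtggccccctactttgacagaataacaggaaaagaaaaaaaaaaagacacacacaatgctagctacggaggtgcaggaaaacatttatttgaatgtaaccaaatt
The palindrome is found in 8.3% of 32851 promoters of this length, and in 3 of the 14 growth hormone and IGF genes with a promoter in the table. A match is a description of the letters and not a measured binding site.

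Genes known for higher expression in male or in female liver were looked at next. Of 25 male-biased genes, 5 were called higher and 2 lower in KK males, with a median of 0.19. Gna14, a G protein subunit gene, was higher by 1.45 (SE 0.16) and Serpina12, which encodes vaspin, by 1.34 (SE 0.21). Bcl6 and Gstp1 were the 2 lower. Cyp4a12a (0.88, adjusted p = 0.0332), Nat8 (0.86, adjusted p = 0.0244) and Cspg5 (0.60, adjusted p = 0.0444) each lost the call without single arrays, at most 0.118 (without C57BL/6J male 1), 0.10 (C57BL/6J male 2) and 0.149 (C57BL/6J male 3). The count higher fell to 2 without C57BL/6J male 2, KK male 2 or KK male 3, and to 3 without C57BL/6J male 1.

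Of 20 female-biased genes none was called higher and 5 were called lower, with a median of -0.16. Abcd2, a peroxisomal fatty acid transporter gene, read 6.90, 7.69 and 6.96 in C57BL/6J males and 5.60, 5.50 and 4.98 in KK males (difference -1.83, SE 0.30, adjusted p = 0.00343). Atp6v0d2, a proton pump subunit gene, differed by -0.53 (SE 0.10, adjusted p = 0.00624), and Cyp4a10 and Cyp4a14 are given above. The male means of Atp6v0d2, 5.18 in C57BL/6J and 4.64 in KK, both lay under the 5.76 given above for orientation. Cyp17a1, which makes androgen precursors, lost its call without KK male 1 (0.084) or KK male 2 (0.0611). In females the medians of the 2 lists were 0.95 and -1.73. Each list held 5 genes called for the difference between the sexes. Of 4 measured major urinary protein genes, Mup21 was lower by -1.36 (SE 0.24, adjusted p = 0.00595).

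The strain difference in males was mostly shared by females. Of the 1092 calls, 1048 (96.0%) had the same sign in females, against 60.4% of all probe sets, and 155 of the 160 calls of at least 2-fold did so. Across the called probe sets, which are not independent of each other, the male and female differences correlated at 0.871. The test of the difference between the sexes called 30 probe sets, 0.141% of those tested, of which 16 were also called in males. A total of 1346 had an unadjusted p under 0.05. Of the 28 called genes listed after those with names starting in Gm were passed over, 13 passed with each array left out in turn. The 28 and the 13 include BC018473, which has only an accession-like name.

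In 8 of these 28 genes the male difference was the larger one. Cyp4a14 fell by 6.11 in males and by 1.78 in females, a difference of -4.33 (SE 0.54, adjusted p = 0.00548), and Cyp4a10 by 3.43 and 1.04, a difference of -2.39 (SE 0.28, adjusted p = 0.00486). KK females kept high levels of both, at 10.88 and 11.90, while KK males were at 5.27 and 8.95. For Moxd1 the male minus female difference was 3.40 (SE 0.41, adjusted p = 0.00486). The others were Bcl6, Cish, Mogat1 (1.96 in males and 0.97 in females, adjusted p = 0.0184), the prostaglandin dehydrogenase Hpgd (-0.89, adjusted p = 0.0164) and Trp53inp1 (-0.83, adjusted p = 0.0381). Mogat1 and Hpgd had the same sign in both sexes. Mogat1 was lost without any 1 of 5 arrays (at most 0.0613 without C57BL/6J male 2), Hpgd without 2 (0.0591, KK male 2) and Trp53inp1 without 10 (0.115, KK female 1).

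In the remaining 20 the female difference was larger. Cyp4a12a read 11.24, 11.72 and 11.94 in C57BL/6J males and 12.48, 12.49 and 12.58 in KK males, a small step next to the 7.19 of females (male minus female -6.31, SE 0.30, adjusted p = 9.14e-07). Cyp4a12b differed by 0.46 in males (adjusted p = 0.213), with a male minus female difference of -6.59 (adjusted p = 1.66e-07). Cyp2b13 read between 3.64 and 3.82 in all 6 males and fell by 5.11 in females (male minus female 5.08, adjusted p = 0.000912). Cyp2a22 (3.09, adjusted p = 0.000976) and Atp6v0d2 (2.51, adjusted p = 2.43e-06) also differed less in males than in females, by -0.25 and -0.53 against -3.34 and -3.04. Hsd3b5 (-3.84), Mup20 (-1.86), Cyp17a1 (2.96), Cyp2c39 (-1.68), Glt1d1 (1.73) and Serpina1d (1.66) were called and lost with single arrays left out, at most 0.066 (KK male 2), 0.0533 (C57BL/6J male 3), 0.144 (C57BL/6J male 3), 0.0986 (KK male 2), 0.0549 (KK male 1) and 0.0603 (C57BL/6J male 3). Glt1d1 and Serpina1d were called in males as well, at -1.34 (SE 0.18) and -1.70 (SE 0.17).

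**Figure D3:**
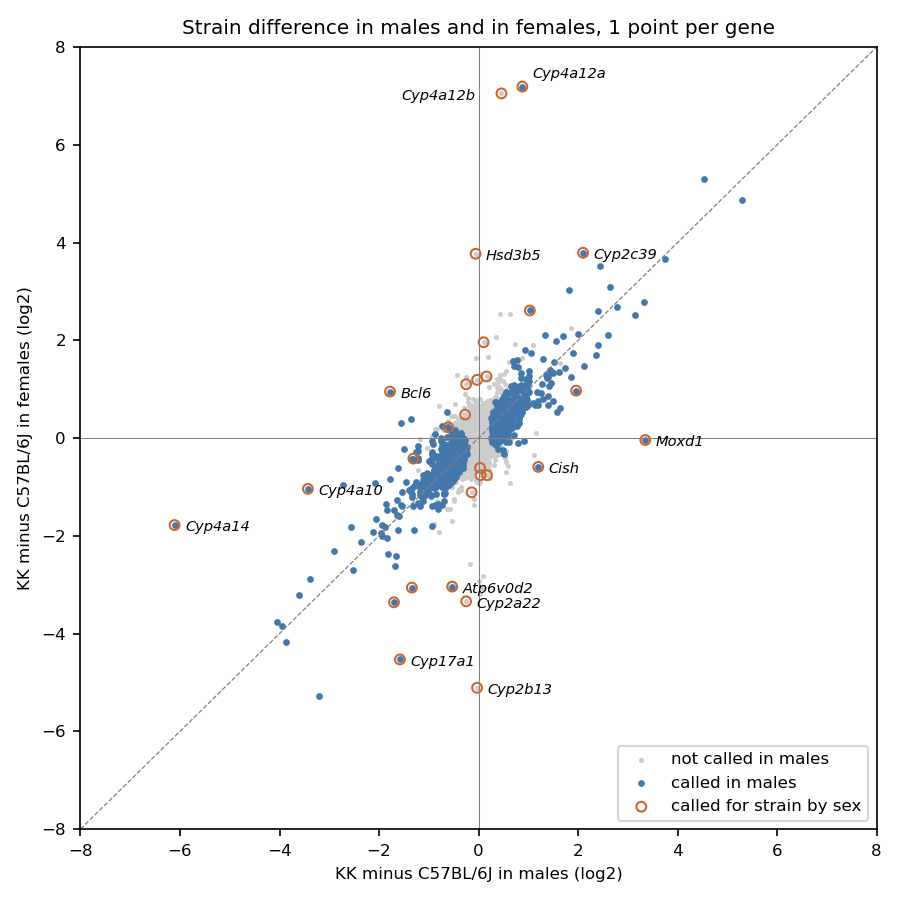
Strain difference in males (horizontal) against females (vertical), KK minus C57BL/6J in log2, 1 point per gene, with the dashed line marking equal differences. Blue points were called in males and orange rings mark the 28 genes called for the difference between the sexes; Bcl6, Cish, Cyp4a14, Cyp4a10 and Moxd1 lie off the line with the larger difference in males, and Cyp4a12a and Cyp2b13 with the larger one in females.

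**Figure D4:**
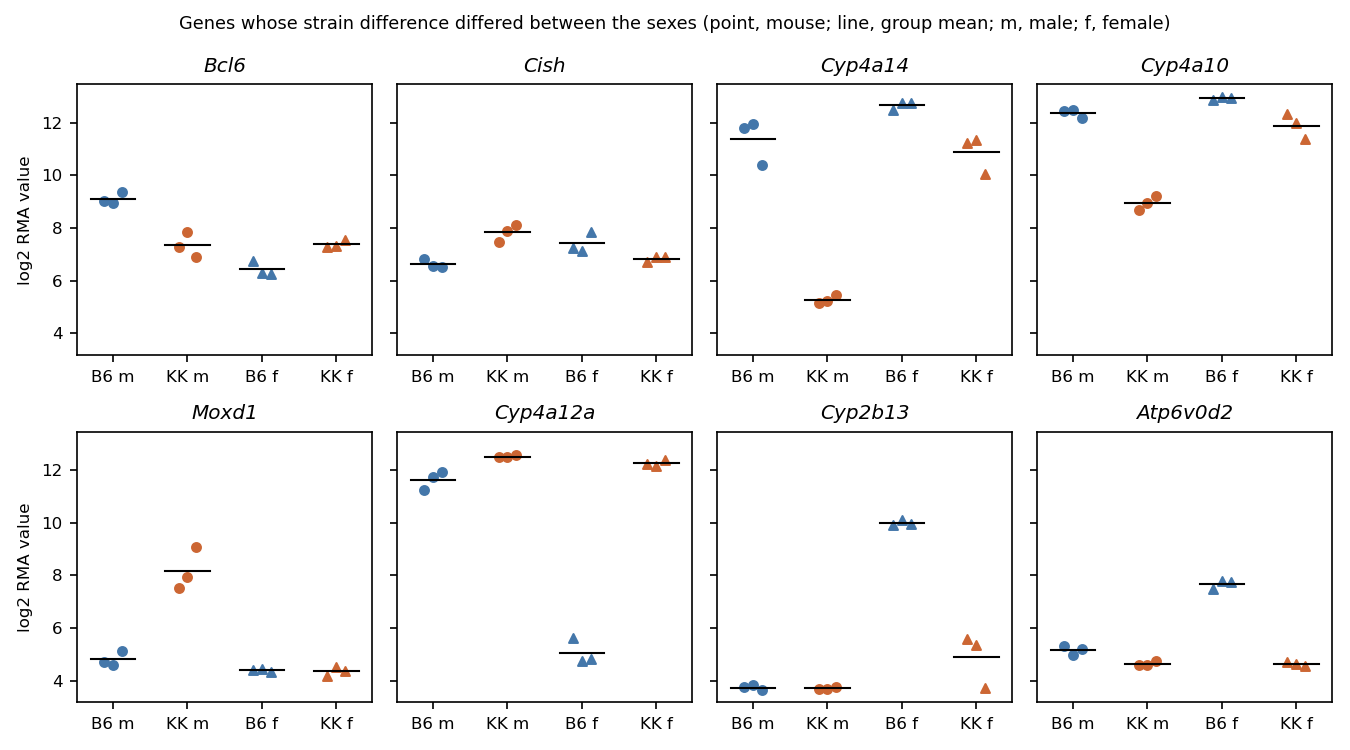
Log2 RMA values (vertical axis, shared) of 8 genes in the 4 groups, 1 point per mouse with the group mean as a line; B6 is C57BL/6J, circles are males and triangles females. Bcl6 is highest in C57BL/6J males at 8.95 to 9.39, Cyp4a14 is low only in KK males, and Moxd1 is high only in KK males at 7.52 to 9.06.

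Genes of the interferon response lay below the C57BL/6J level in KK males. All 27 measured genes had a difference below 0, with a median of -0.47, 10 were called lower and none higher, and 21 had an unadjusted p under 0.05. Ifih1, a cytosolic sensor of viral RNA, read 8.14, 8.32 and 8.49 in C57BL/6J males and 7.48, 7.37 and 7.71 in KK males (difference -0.80, SE 0.10, adjusted p = 0.000664). Usp18, which removes ISG15 and damps interferon signalling, read 6.94, 8.26 and 7.63 against 5.79, 6.06 and 6.09 (difference -1.63, SE 0.24, adjusted p = 0.00186). Bst2, the virus tether, differed by -0.98 (SE 0.16), Rsad2, the antiviral enzyme viperin, by -0.90 (SE 0.15), and Ifit1, which binds viral RNA, by -1.36 (SE 0.24). These 5 passed with each array left out in turn. Irf7 (-1.22), Herc6 (-0.78), Irf1 (-0.69), Ifi27 (-0.54) and Eif2ak2 (-0.47) were called at 0.0175 to 0.0413 and were lost without single arrays, at most 0.0792 (KK male 1), 0.156 (C57BL/6J male 2), 0.14 (C57BL/6J male 3), 0.157 (KK male 2) and 0.13 (C57BL/6J male 3). The count was 5 without C57BL/6J male 2, C57BL/6J male 3, KK male 1 or KK male 2, and also when only the 6 male arrays were fitted. In females the median of the list was -0.29.

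The mice of a group differed among themselves. The median deviation of the list from the C57BL/6J male mean was -0.28, 0.28 and 0.01 in the C57BL/6J males and -0.59, -0.72 and -0.27 in the KK males. C57BL/6J male 2 thus stood highest, and KK male 3 was at the level of C57BL/6J male 1. Without C57BL/6J male 2 the list's median difference was -0.34.

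The promoters of Ifit1 and Bst2, both among the 5, are printed with the core of the interferon-stimulated response element, GAAANNGAA or its reverse complement, in capitals. Ifit1 is on the plus strand at chr19:34640639-34640938 with 3 matches and Bst2 on the minus strand at chr8:71537423-71537722 with 2. The matches of Bst2 overlap each other, as do 2 of those of Ifit1.
Ifit1: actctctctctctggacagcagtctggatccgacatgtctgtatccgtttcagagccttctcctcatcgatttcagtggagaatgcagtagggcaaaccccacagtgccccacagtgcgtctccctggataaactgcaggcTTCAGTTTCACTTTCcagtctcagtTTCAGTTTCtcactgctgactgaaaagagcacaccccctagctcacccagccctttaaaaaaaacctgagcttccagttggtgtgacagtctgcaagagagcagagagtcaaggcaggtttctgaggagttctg
Bst2: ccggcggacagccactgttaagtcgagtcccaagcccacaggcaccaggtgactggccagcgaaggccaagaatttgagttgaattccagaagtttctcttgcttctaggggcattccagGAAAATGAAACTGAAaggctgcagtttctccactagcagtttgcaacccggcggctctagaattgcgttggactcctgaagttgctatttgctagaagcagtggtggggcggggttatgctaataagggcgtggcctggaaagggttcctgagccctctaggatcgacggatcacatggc
The core was found in 8.56% of all promoters of this length and in 10 of the 20 interferon genes with a promoter in the table. Here too the share is per promoter, while a gene was counted if any of its promoters held a match. Among the called genes with a promoter it was in 5 of 8, namely Bst2, Eif2ak2, Ifih1, Ifit1 and Rsad2.

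Other interferon-induced families differed less evenly. Of 13 guanylate-binding protein and GTPase genes, Gbp11 was higher by 3.32 and Iigp1 differed by -0.87 (adjusted p = 0.0186, 0.0798 without C57BL/6J male 2). Gbp3 (-0.95), Gbp2 (-0.60) and Gbp7 (-0.51) did not pass, and the probes of this family may read several paralogs. With array weights their adjusted p-values were 0.0303, 0.0313 and 0.0317. Gbp3 also passed without C57BL/6J male 1 (0.0476) and Gbp2 among probe sets above the median level (0.0462). Of the 13 genes, 9 had a difference below 0 and 4 above, and Gbp11 was the only one called higher. Of 28 MHC genes, 1 was called higher and 8 lower. H2-T23, a nonclassical class I gene, read 10.09, 10.24 and 10.01 in C57BL/6J males and 8.15, 8.15 and 8.36 in KK males (difference -1.89, SE 0.12, adjusted p = 1.34e-06). H2-Q7 differed by -1.55 (SE 0.23), H2-Q6 by -0.82 (SE 0.14) and H2-T24 by -0.54 (SE 0.08), while H2-T10 was higher by 1.61 (SE 0.23). The classical genes H2-K1 (-0.32, adjusted p = 0.0383), H2-D1 (-0.42, adjusted p = 0.0158) and H2-Q4 of the Q region (-0.74, adjusted p = 0.0156) lost their calls without single arrays, at most 0.152 (C57BL/6J male 2), 0.0582 (C57BL/6J male 2) and 0.076 (KK male 1). The count lower was 5 without C57BL/6J male 2 or without KK male 1. MHC genes are highly polymorphic between strains, and probe matches to the KK alleles were not examined here. Class II genes had uneven values: H2-Aa read 8.19, 9.51 and 8.45 against 7.29, 7.35 and 7.96 and was not called (difference -1.18, adjusted p = 0.139).

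Markers of Kupffer cells and other macrophages lay mostly below the C57BL/6J level in KK males, but few passed the test. Of 17 markers, 15 had a difference below 0, the median was -0.50, 2 were called lower and 11 had an unadjusted p under 0.05. Clec4f, a Kupffer cell lectin, differed by -0.75 (adjusted p = 0.0144, 0.0655 without KK male 1) and Csf1r, the macrophage growth factor receptor, by -0.75 (adjusted p = 0.0393). No marker was called without C57BL/6J male 2, KK male 1 or KK male 2, while 6 were without KK female 1 and 4 without KK female 3 or KK male 3. A single marker was called without C57BL/6J female 1, C57BL/6J female 3 or C57BL/6J male 3. The mean level of the 17 markers was 7.40, 7.92 and 7.47 in C57BL/6J males and 7.07, 7.06 and 7.32 in KK males. That of the interferon genes was 6.84, 7.45 and 7.16 against 6.49, 6.44 and 6.79, and that of the MHC genes 7.82, 8.10 and 7.78 against 7.52, 7.45 and 7.62. In all of these lists C57BL/6J male 2 was the highest mouse. The part of the macrophage markers in the interferon and MHC differences was not tested. In bulk liver RNA, fewer cells of a type and less RNA per cell cannot be told apart. In females the macrophage median was 0.10, but no marker was called for the difference between the sexes.

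**Figure D5:**
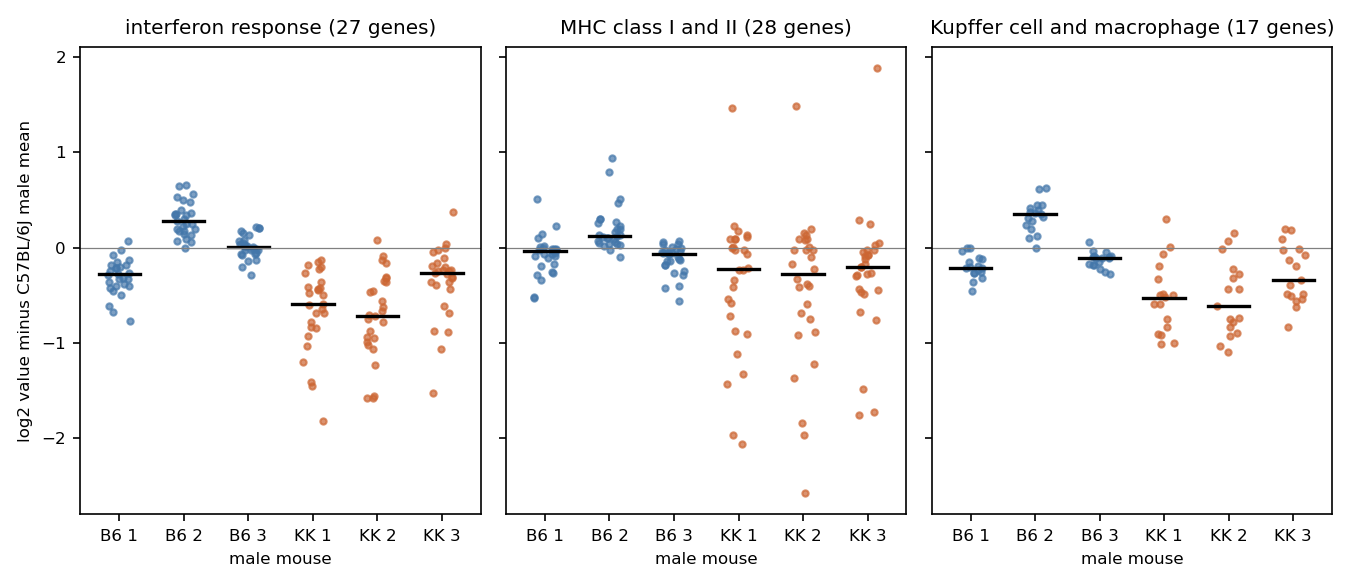
Log2 value of each list member minus its C57BL/6J male mean (vertical axis) in the 6 male mice (horizontal axis; B6 is C57BL/6J), 1 point per gene with the median as a bar, for the interferon, MHC and macrophage lists. C57BL/6J male 2 has the highest median in all 3 panels (0.28, 0.12 and 0.35), and KK males 1 and 2 have the lowest.

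Plasma proteins of the acute phase did not differ as a group. Apcs, the serum amyloid P component, read 8.53, 8.78 and 8.74 in C57BL/6J males and 11.14, 10.84 and 11.28 in KK males (difference 2.41, SE 0.13, adjusted p = 4.62e-07). Lbp, which binds bacterial lipopolysaccharide, was higher by 0.86 (SE 0.08, adjusted p = 7.87e-05). Il6ra, the interleukin 6 receptor, differed by -0.73 (adjusted p = 0.0273, 0.116 without C57BL/6J male 3). Saa1 read 7.27, 6.06 and 7.10 against 8.87, 9.08 and 8.07 and Saa2 differed by 1.64, and neither was called (adjusted p = 0.182 and 0.232). Saa1 did pass when only the 6 male arrays were fitted (0.0248) and without KK female 3 (0.0111). The KK females had an SD of 1.85, and the C57BL/6J and KK males had SDs of 0.65 and 0.53. Both are near-identical paralogs. In all, 2 of 27 acute phase genes were called higher and 1 lower. Of 31 complement and coagulation genes, Hc, which encodes complement C5, was lower by -1.17 (SE 0.13, adjusted p = 0.000166) and Masp2, a protease of the lectin pathway, by -0.36 (SE 0.07, adjusted p = 0.00879, 0.0508 with only the 6 male arrays fitted). Of the 31 genes, 24 had a difference below 0, with a median of -0.16 beside 0.02 over all probe sets. Values did not overlap between the strains for 19 of them, beside 21.7% of all probe sets. By limma, 15 of the 31 had an unadjusted p under 0.05. The complement genes C1qa (-0.63) and C1qc (-0.71), which are also macrophage markers, did not pass (adjusted p = 0.0644 and 0.0607). Both passed with array weights (0.0173 and 0.0126), among probe sets above the median level (0.0344 and 0.0311) and without KK female 1 (0.0261 and 0.0329), and C1qc also without KK female 3 (0.0486).

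Iron, mitochondrial and stress genes were called singly. Hjv, the co-receptor that raises hepcidin, read 8.85, 8.56 and 8.96 in C57BL/6J males and 7.82, 7.93 and 7.76 in KK males (difference -0.95, SE 0.13, adjusted p = 0.000745). Hamp, hepcidin itself, was not called, at 10.98, 9.07 and 9.14 against 10.74, 10.20 and 10.89 (difference 0.88, adjusted p = 0.283). That rested on C57BL/6J male 1, without which the difference was 1.5 (adjusted p = 0.000911). The transferrin receptor Tfrc differed by 0.64 (adjusted p = 0.0153, 0.0707 without KK male 1). The respiratory chain list had 25 of 28 genes below 0, with a median of -0.11 beside 0.02 over all probe sets. These are bright genes, with mean levels of 9.88 to 10.05 in the male arrays. Among probe sets above the median level the median difference was -0.017. Without overlap between the strains were 18 of the 28, beside 21.7% of all probe sets. Of these 28, Nnt and Sdhc (0.35, SE 0.06) were higher, and the calls of Cox6c (-0.29, adjusted p = 0.0296) and Ndufa9 (-0.38, adjusted p = 0.032) were lost without single arrays, at most 0.102 (C57BL/6J male 1) and 0.134 (C57BL/6J male 3). Cox6c also lost its call with quantile (adjusted p = 0.0951) and loess normalization (0.0881). With only the 6 male arrays fitted, Cox6c (0.0538) and Ndufa9 (0.0533) were not called either. Of 20 stress response genes 1 was called, Dnajb9 (0.71, adjusted p = 0.0449), and it was lost without any 1 of 9 arrays. Among 18 proliferation genes Rrm2 differed by -0.63 (adjusted p = 0.0189, 0.0771 without C57BL/6J male 1). By limma none of the 19 clock genes and none of the 14 handling and immediate early genes was called, with 5 and 3 at an unadjusted p under 0.05. With array weights 4 and 1 of them were called, and 2 clock genes were without C57BL/6J male 3 and 1 immediate early gene with KK male 1 left out.

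Genes marking the zones of the liver lobule differed singly. Of 12 periportal genes, Asl, of the urea cycle, was lower by -0.57 (SE 0.11), the histidine-degrading enzyme Hal by -0.44 (SE 0.07) and the protease Ctsc by -1.21 (SE 0.19), all with each array left out. Of 15 pericentral genes, the ammonium transporter Rhbg was higher by 0.57 (SE 0.10) and Cyp27a1 lower, while Slc1a2 (-0.49, adjusted p = 0.0364) and Gulo (-0.23, adjusted p = 0.0474) were lost without single arrays, at most 0.139 (KK male 1) and 0.177 (C57BL/6J male 3). Glul, the innermost pericentral enzyme, did not separate (-0.23, adjusted p = 0.32).

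Markers of other cell types were mostly at similar levels in both groups. In the sinusoidal endothelial list Lyve1 was lower by -0.75 (SE 0.13, adjusted p = 0.00372) and Fcgr2b by -0.50 (SE 0.10, adjusted p = 0.00914) of 16 genes, and Ehd3 differed by 0.32 (adjusted p = 0.0202, 0.0839 without C57BL/6J male 3). The mean of that list was 8.04, 8.20 and 8.18 in C57BL/6J males and 7.95, 7.90 and 8.12 in KK males. Of 18 stellate cell and matrix genes Rgs5, a pericyte gene, was higher by 0.72 (SE 0.14), and Lum differed by -0.58 (adjusted p = 0.0453, 0.164 without C57BL/6J male 2). The male means of Lum were dim, 4.76 in C57BL/6J and 4.18 in KK, both under the 5.76 given for orientation. Alas2, the erythroid enzyme of heme synthesis, was higher by 0.77 (SE 0.15, adjusted p = 0.0105), and no other of the 9 erythroid and neutrophil genes was called. Slc4a2 was the single cholangiocyte call of 8 (0.25, adjusted p = 0.0413), and it was lost without any 1 of 9 arrays. None of 13 T and NK cell, 8 B cell, 7 adipose or 9 pancreatic markers was called by limma, and over these lists 1 marker, of the pancreas list, had an unadjusted p under 0.05.

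The calls were spread over the genome. They made up between 3.7% of the measured genes on chromosome 7 and 7.09% on chromosome 12 among the autosomes, and 2.26% on the X chromosome. Only 2 runs of at least 4 neighbouring called genes were found. The first was the Cyp4a cluster. The other, on chromosome 7, held Tarsl2 (-0.59), Tm2d3 (-0.37), Pcsk6 (0.80) and Snrpa1 (-0.36), of which Pcsk6, a proprotein convertase gene, passed with each array left out (adjusted p = 0.000183) and the others were lost without single arrays, at most 0.0767 (C57BL/6J male 3), 0.0932 (KK male 1) and 0.155 (C57BL/6J male 2). Of 17 imprinted genes Mest was called (0.58, adjusted p = 0.0137, 0.0531 without C57BL/6J male 3). The Y-linked gene Eif2s3y differed by -0.37 (adjusted p = 0.0309, 0.129 without C57BL/6J male 3), and H2-Ea, which C57BL/6J mice do not transcribe, read low in both strains (4.87 and 4.83).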

How the data were processed

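Liver RNA of 12 mice, 3 per strain and sex, was hybridised to Affymetrix whole-transcript arrays, 1 array per mouse, from 300 ng of RNA per the labels' protocols. The authors deposited log2 expression values, 1 per probe set. RMA and affy are named in the submitters' processing notes; their versions and the background and normalization settings are not given in the sources used here. The values were used as deposited, with no counts or depth behind them. Of 21212 probe sets, 18786 had 1 gene symbol in the platform annotation, 6 had several and 2420 had none. No probe was matched to the KK genome.

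One mean per strain and sex was fitted to all 12 arrays with limma 3.58.1 (R 4.3.3), which gave the KK minus C57BL/6J difference in males and the difference between the sexes' strain differences. The total degrees of freedom were 11.99. P-values were adjusted by Benjamini-Hochberg over all probe sets and called under 0.05. The labels do not say whether the mice came from separate litters. Gene lists were counted and given no test of their own.

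The named genes were the 15 largest non-overlapping calls each way, the 8 largest calls each way for the difference between the sexes and those of opposite sign, the 5 list members with the smallest adjusted p, the genes with 1 strain mean at or below the highest Y-linked value of the female arrays and the other at least 2 above it, and runs of at least 4 neighbouring calls. Further list members were named for their place in a pathway or to complete a count, after their values were seen. The members and the 42 lists, with 686 distinct measured genes, were chosen with earlier results of these data known. Promoters came from RefSeq, and those on chromosome 18 were left out. The alternatives were quantile and loess normalization, a filter on low values, 1 probe set per gene, an intensity trend, array weights, a replicate block, the interquartile range as covariate, a fold minimum of 1.5, only the male arrays, and each array left out.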

Additional observations from a re-analysis of the deposited data

Results flagged for a closer look

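The strain difference itself differed between males and females for 30 probe sets by limma's interaction test, adjusted over all probe sets. The values here are the male difference minus the female one, each KK minus C57BL/6J in log2. Among the P450 genes it was -6.59 for Cyp4a12b, -6.31 for Cyp4a12a, -4.33 for Cyp4a14, -2.39 for Cyp4a10, -1.68 for Cyp2c39, 5.08 for Cyp2b13, 3.09 for Cyp2a22 and 2.96 for Cyp17a1. Cyp4a14 and Cyp4a10 stood out by the larger difference in males, the others of these by the larger one in females.

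Bcl6 gave -2.73 and Cish 1.79, with opposite signs in the sexes, and Trp53inp1 gave -0.83. Moxd1 gave 3.40, with KK males high and all females low. Hsd3b5, a male-biased steroid enzyme gene, gave -3.84 and Mup20, a urinary pheromone carrier gene, -1.86. Atp6v0d2 gave 2.51, Glt1d1 1.73 and Serpina1d 1.66. Which of these calls were lost with an array left out is given with the results above.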

How the results depend on the processing

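Of 1092 calls in males, 442 higher and 650 lower, array weights gave 2423 (1102 and 1321), the interquartile range as covariate 1673 with 837 higher, quantile normalization 676 higher, and a fold minimum of 1.5 gave 467 (182 and 285). With each array left out the total ran from 662 to 1163, the count higher from 281 to 450 and the count lower from 362 to 713. The test between the sexes gave 30 calls, 77 with array weights and 19 to 35 with each array left out; the 19 came from leaving out KK male 2 or, separately, C57BL/6J male 3. A replicate block gave 1477 calls and 41 between the sexes, but the replicate numbers share no stated origin. Deviations from the group means correlated between the strains at 0.153, 0.048 and 0.42 for same-numbered males. For differently numbered males these correlations ran from -0.402 to 0.33. Between the groups of all 12 arrays they ran wider, from -0.506 (KK male 3 with KK female 2) to 0.482 (KK male 3 with KK female 1). The share of calls that were higher was 40.5%, and 48.1% with quantile normalization, 48.0% with loess and 50.0% with the covariate. No named value changed its sign while called. Of the named male values under the other settings, 1915 kept direction and side of the threshold, 74 became called, 34 lost their call and 12 uncalled values moved by more than the spread. With arrays left out these numbers were 2570, 27, 158 and 17. The causes were not tested. With 3 arrays per group and no probe-level files used here, signal over background could not be given per probe set.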
